A study of Mus musculus with 12 samples.

Results

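The otic vesicle is the embryonic precursor of the inner ear, a hollow ball of epithelium, and the data described here follow it in wild-type mouse embryos between embryonic day 10 (E10) and E10.5. The comparison took the 2 arrays titled as wild-type otic vesicle at E10.5 and the 2 titled as wild-type otic vesicle at E10, which were 4 of the 12 Affymetrix mouse arrays of the series. A further 4 vesicle arrays, 2 labelled Dlx5-null at E10.5 and 2 labelled Dlx5-null at E10, served to estimate the spread between replicates and were set beside the wild-type values. The remaining 4 arrays came from a cell line and were not used. Each array was hybridised with RNA of a pool of 4 to 8 vesicles, and the labels call the 2 pools of each stage and genotype biological replicates. Vesicles were dissected from embryos staged by somite number and freed of adhering mesenchyme in 1 mg/ml dispase. The sources used here name neither the strain nor any relation of the wild-type embryos to the labelled Dlx5-null litters, and no treatment or transgene is labelled in either wild-type group. Values are log2 expression from robust multi-array averaging (RMA), so a difference of 1 is a 2-fold change.

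At these stages the closed vesicle loses contact with the surface ectoderm, its dorsal wall begins to grow into the endolymphatic and vestibular parts and its ventral wall into the cochlear duct. Neuroblasts leave the ventral epithelium and differentiate into the neurons of the vestibular and cochlear ganglia. Wnt, bone morphogenetic protein (BMP), Hedgehog, fibroblast growth factor (FGF) and retinoic acid signals from the hindbrain, notochord, mesenchyme and the vesicle itself are known to pattern the epithelium.

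The E10.5 arrays were close to each other and the E10 arrays were not. Over the 13645 genes tested, the replicates differed by a median of 0.09 log2 units at E10.5 and 0.37 at E10, and by more than 1 for 6 genes at E10.5 and 600 at E10. The arrays labelled Dlx5-null behaved likewise, with medians of 0.16 at E10.5 and 0.33 at E10. Both E10 replicate 1 arrays, wild-type and labelled Dlx5-null, stood apart. In wild-type arrays the X-linked transcript Xist measured 9.17 and 9.01 at E10.5, against 5.07 in replicate 1 and 9.72 in replicate 2 at E10, and the Y-linked gene Eif2s3y, left out of the tests as too dim, measured 3.21 and 3.45 at E10.5, against 7.04 and 3.96 at E10. E10 replicate 2 was thus near the E10.5 pools in these transcripts and E10 replicate 1 was not, and Xist did not pass between stages (adjusted p = 0.5691). For 9594 of the 13645 genes (70.3%) E10 replicate 1 lay farther from the E10.5 mean than E10 replicate 2 did. The difference between the 3' and 5' probe sets of Gapdh, a sign of RNA integrity, was 1.05 and 1.04 log2 units at E10.5 and 1.13 and 1.02 at E10. For Actb it was 0.17 and 0.20 at E10.5 and 0.28 and 0.25 at E10. With 2 arrays per group, the number of arrays limits the precision of every difference below.

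The vesicle identity of the arrays was checked against 16 otic epithelium markers, of which 14 had a probe set and all 14 passed the filter on dim genes. Their mean level was 8.41 and 8.42 at E10.5 and 7.81 and 8.35 at E10. Oc90, the main protein of otoconia and a marker of otic epithelium, measured 13.28 and 13.28 at E10.5 and 10.75 and 11.85 at E10. Dlx5 itself, the gene named in the other genotype, measured 6.12 and 6.11 in wild-type vesicles at E10.5 and 6.20 and 6.30 at E10. It measured 7.97 and 7.97 in the labelled Dlx5-null vesicles at E10.5 and 7.27 and 8.02 at E10, above the wild-type arrays of the same stage. The position of this probe set relative to the altered part of the gene is not given in the sources used here, so it does not check the genotype labels, and these arrays are called labelled Dlx5-null throughout.

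Between E10 and E10.5 some genes of differentiating neurons, of extracellular matrix and of retinoic acid synthesis and uptake rose in the wild-type vesicle. A retinoid receptor gene rose too. Among the genes that fell were the early embryonic regulators Lin28a and Nr6a1, the keratin Krt23 and a few genes of mitosis and of the nucleolus. In pools of whole vesicles, a change in the share of a cell type and a change in RNA per cell cannot be told apart. In limma's test with Benjamini-Hochberg adjustment over all genes, 296 of 13645 genes (2.17%) passed the threshold of 0.05. Of these, 160 (1.17%) were higher at E10.5 and 136 (0.997%) were lower. A change of at least 2-fold was seen in 138 of the risers (1.01% of all genes) and 80 of the fallers (0.586%). At an unadjusted p under 0.05 there were 2054 genes higher (15.1%) and 1014 lower (7.43%). The largest rise among called genes was 4.16 log2 units and the largest fall was -3.55. The median difference over all genes was 0.06, and 55.4% of genes had a difference above 0. In 7768 genes (56.9%) the 2 arrays of each stage did not overlap, 4818 of them higher at E10.5 and 2950 lower. For the list counts below, the shares called over all genes are 1.17% higher and 0.997% lower. At an unadjusted p under 0.05 these shares are 15.1% and 7.43%.

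**Figure D1:**
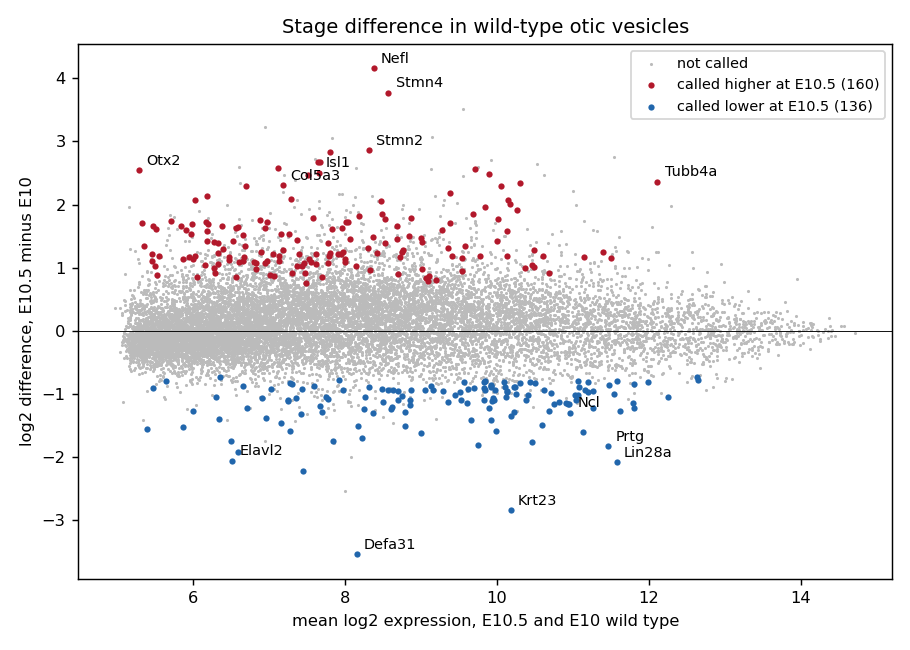
Each point is 1 of 13645 genes, with its mean log2 expression over the wild-type arrays on the x axis and its log2 difference, E10.5 minus E10, on the y axis. Red points are the 160 genes called higher at E10.5, blue points the 136 called lower and grey points the rest; Nefl has the largest called rise (4.16) and Defa31 the largest called fall (-3.55).

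These calls rest on a spread estimated over all 8 vesicle arrays, and they sit near the threshold, the smallest adjusted p being 0.01902. The test takes 1 spread per gene for all 4 groups, although replicates differed more at E10 than at E10.5. An SE or adjusted p below therefore does not measure the spread of the wild-type arrays alone. Without wild-type E10.5 replicate 1 or replicate 2 limma called 0 genes, with 1306 and 1442 at an unadjusted p under 0.05. Without labelled Dlx5-null E10.5 replicate 1 or replicate 2 it also called 0, with 2480 and 2485 at an unadjusted p under 0.05. Without wild-type E10 replicate 1 it called 6 genes, and without wild-type E10 replicate 2 it called 873. Without labelled Dlx5-null E10 replicate 1 or replicate 2 it called 843 and 837. The 4 wild-type arrays alone gave 0 calls (2985 at an unadjusted p under 0.05). Without both E10 replicate 1 arrays, an alternative added after the data were seen, 1689 genes passed, among them 291 of the 295 called genes that stayed in that test. With 1 array of each genotype left at E10, that last fit took its spread from the E10.5 arrays alone. In each of these fits at least 292 of the called genes that stayed in the test kept the sign of their difference. The genes were called from these same arrays, so the kept signs are no separate test of the calls. Leaving out a labelled Dlx5-null array changes no wild-type value. The counts for gene groups given below fall to 0 without any 1 of the 4 E10.5 arrays, and without wild-type E10 replicate 1 they fall to 0 or 1 in each group described.

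Called risers and fallers differed in level and in gene length. The median level of the risers was 8.36 at E10.5 and 6.90 at E10, and that of the fallers was 9.10 at E10.5 and 10.2 at E10. Over all tested genes the median level was 7.73 at E10.5 and 7.51 at E10. Median gene length was 17.8 kb for risers, 46.9 kb for fallers and 21.5 kb for all tested genes. Whether level or length bears on the calls was not tested.

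The 15 largest rises were led by genes of the neuronal cytoskeleton. Nefl, the light chain of neurofilaments on chromosome 14, measured 10.41 and 10.51 at E10.5 and 5.10 and 7.50 at E10. The E10.5 arrays were alike and both lay far above the E10 arrays, which were themselves far apart. Nefl rose by 4.16 ± 0.66 log2 units (SE), a 17.9-fold change with an adjusted p of 0.03826. Leaving out replicate 1 of wild-type E10 gave 2.96 for Nefl, leaving out replicate 2 gave 5.36, and the mean of its probe sets gave 2.85. Stmn4, a stathmin that binds tubulin in neurons, measured 10.49 and 10.43 at E10.5 and 5.86 and 7.51 at E10 (3.78 ± 0.46, adjusted p = 0.0291). Stmn2, a stathmin of growing axons, measured 9.72 and 9.78 at E10.5 and 6.24 and 7.53 at E10 (2.87 ± 0.42, adjusted p = 0.03654). For both stathmins E10 replicate 1 was the lowest of the 4 arrays. Tubb3, the neuronal beta-tubulin, measured 11.17 and 11.12 at E10.5 and 7.98 and 9.33 at E10 (2.49 ± 0.40, adjusted p = 0.03861). Tubb4a, another beta-tubulin of neural tissue, measured 13.29 and 13.29 at E10.5 and 10.40 and 11.46 at E10 (2.36 ± 0.43, adjusted p = 0.04909). Syp, a membrane protein of synaptic vesicles, measured 11.06 and 10.93 at E10.5 and 7.74 and 9.13 at E10 (2.56 ± 0.40, adjusted p = 0.03706). Each of these 3 genes again had tight E10.5 values above scattered E10 values.

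Other probe sets of these genes bore the direction out in part. The second set of Stmn2 differed by 3.14 and that of Nefl by 1.54, while a dim second set of Syp differed by -0.38. Apc2, a neuronal relative of the tumour suppressor Apc, was called with a difference of 2.68 from its brightest set. Of its 3 other sets 1 differed by 3.48 and the other two by -0.19 and -0.17.

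**Figure D2:**
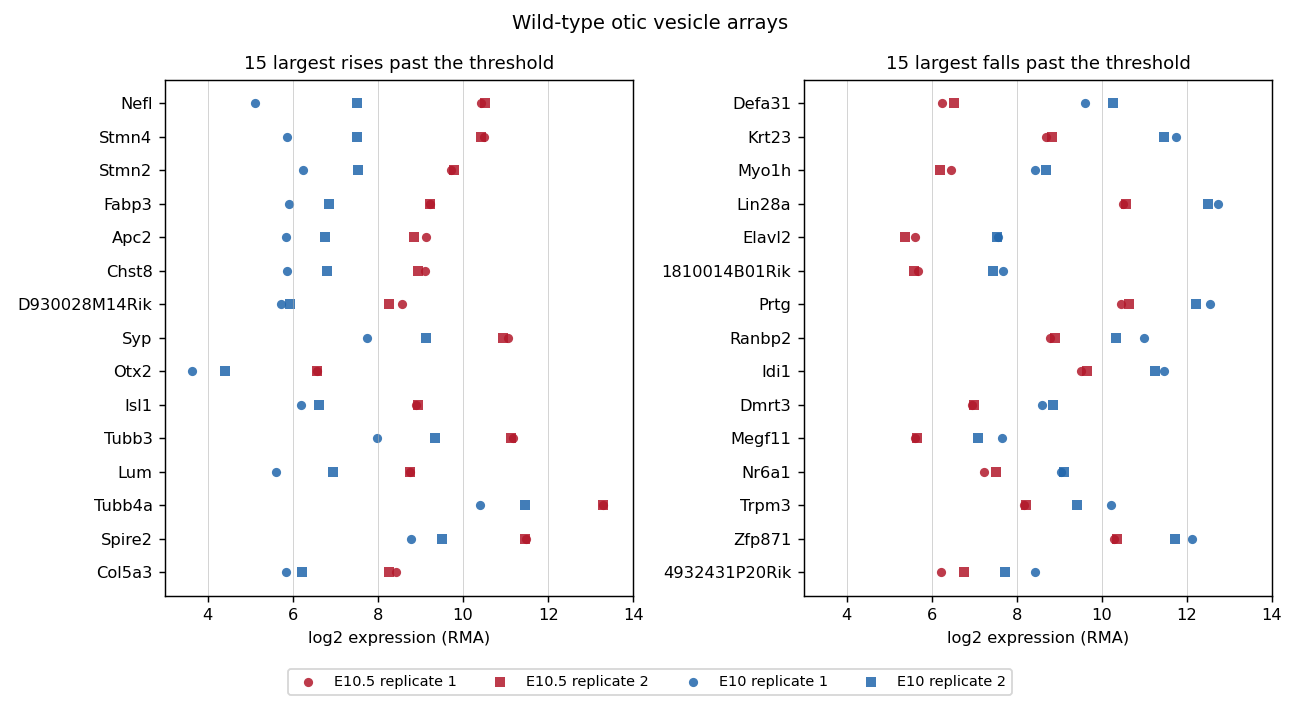
Log2 expression of the 15 genes with the largest rise past the threshold (left) and the 15 with the largest fall (right) in each wild-type array, with red for E10.5, blue for E10, circles for replicate 1 and squares for replicate 2. The 30 genes were chosen among called genes whose stages do not overlap, and non-overlap is found in 56.9% of all tested genes. The E10.5 points of Nefl lie at 10.41 and 10.51 and its E10 points at 5.10 and 7.50.

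A list of 31 genes of neuronal differentiation had 25 tested members. Of these, 6 rose and 1 fell, and the median difference was 0.75, against 0.06 over all genes. The risers outside the 15 largest were Stmn3 (1.30, adjusted p = 0.04592), Cntn2, an axonal adhesion molecule (1.13, adjusted p = 0.03268), and Ina, a neuronal intermediate filament protein (0.95, adjusted p = 0.03644). The 3 other probe sets of Cntn2 differed by -0.11, 0.02 and -0.15, and with the mean of its sets it did not pass (0.23, adjusted p = 0.4715). In all, 19 of the 25 members had E10.5 arrays above both E10 arrays, compared with 35.3% of all genes. Nefm, the medium neurofilament chain, measured 9.80 and 9.75 at E10.5 and 5.81 and 7.99 at E10 but did not pass (2.88, adjusted p = 0.05914). The neuronal migration gene Dcx (0.80) and the growth cone gene Gap43 (1.04) did not pass either, with adjusted p-values of 0.05109 and 0.06454. The 1 member that fell was Elavl2, an RNA-binding protein of the neuronal Hu family, with 5.61 and 5.37 at E10.5 and 7.57 and 7.53 at E10 (-2.06 ± 0.23, adjusted p = 0.02609). All 4 other probe sets of Elavl2 also had differences below 0. The mean level of the 29 measured members was 7.68 and 7.65 at E10.5 and 6.72 and 7.04 at E10. Without both E10 replicate 1 arrays, the median difference of the 25 tested members was 0.645.

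Among 26 transcription factors of otic neurogenesis, 17 were tested and 2 rose, with a median of 0.21. Isl1, a LIM-homeodomain factor of sensory neurons on chromosome 13, measured 8.89 and 8.93 at E10.5 and 6.19 and 6.62 at E10. It rose by 2.51 ± 0.19 log2 units (adjusted p = 0.01902), and its second, dimmer probe set differed by 0.85. Ebf4, of the early B-cell factor family, measured 7.12 and 6.96 at E10.5 and 5.70 and 6.15 at E10 (1.12 ± 0.20, adjusted p = 0.04575). Neurog1, which specifies otic neuroblasts, averaged 5.94 at E10.5 and 5.93 at E10, and its stages overlapped. Neurod1, which acts after Neurog1 in the neuroblasts, measured 8.60 and 8.68 at E10.5 and 9.57 and 9.25 at E10 and did not pass (-0.77, adjusted p = 0.2144). Pou4f1, a POU factor of differentiated sensory neurons, measured 8.16 and 8.26 at E10.5 and 7.25 and 7.38 at E10 and did not pass (0.90, adjusted p = 0.06367). Markers of glia and neural crest, which accompany the ganglion, had 9 tested members, a median of 0.56 and 0 calls (5 members at an unadjusted p under 0.05, 4 above 0 and 1 below). Their mean level was 6.92 and 6.94 at E10.5 and 6.54 and 6.83 at E10. Their part in the neuronal differences was not tested.

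Proneural factors such as Neurog1 and Neurod1 are basic helix-loop-helix proteins, which bind E-boxes. The promoters of the called neuronal and neurogenesis genes were therefore searched for the E-boxes CAGCTG, which reads the same on both strands, and CAGATG, searched on both strands. Of the 8 genes called higher in these lists, 6 had a promoter in the RefSeq table used (GRCm38.p6), taken as the 250 bases before the annotated start. Isl1 and Ina each held 1 CAGCTG, Stmn3 held 1 CAGATG, and Ebf4, Tubb3 and Cntn2 held neither. The 3 promoters with a match are shown 5′ to 3′ on the gene's strand, with the E-box in capitals, since these genes rose together at E10.5. The Isl1 promoter is chr13:116309689-116309938 on the minus strand, with the match starting at -103 from the start site. That of Ina is chr19:47014431-47014680 on the plus strand, with the match at -135, and that of Stmn3 is chr2:181314501-181314750 on the minus strand, with the match at -75.
Isl1: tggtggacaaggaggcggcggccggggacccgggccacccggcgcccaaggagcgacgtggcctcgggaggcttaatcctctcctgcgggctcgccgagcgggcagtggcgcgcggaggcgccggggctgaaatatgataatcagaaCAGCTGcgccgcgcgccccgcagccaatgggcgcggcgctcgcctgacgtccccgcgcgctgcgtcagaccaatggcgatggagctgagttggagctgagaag
Ina: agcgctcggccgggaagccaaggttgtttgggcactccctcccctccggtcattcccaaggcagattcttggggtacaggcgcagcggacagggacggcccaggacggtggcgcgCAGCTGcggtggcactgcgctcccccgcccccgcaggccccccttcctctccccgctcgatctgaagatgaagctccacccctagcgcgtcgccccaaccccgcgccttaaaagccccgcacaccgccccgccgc
Stmn3: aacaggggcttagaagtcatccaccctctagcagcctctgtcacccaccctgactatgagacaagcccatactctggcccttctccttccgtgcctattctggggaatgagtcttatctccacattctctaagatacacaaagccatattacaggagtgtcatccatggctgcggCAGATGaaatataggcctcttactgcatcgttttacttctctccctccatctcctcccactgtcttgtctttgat
Both motifs are common. CAGCTG was found in 12.8% of the 27025 promoters of the table, in 11.9% of those of tested genes and in 12.7% of those of genes called higher. CAGATG was found in 14.5% of all promoters, in 1154 of the 10973 of tested genes and in 11% of those of genes called higher. A match describes these letters only.

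Lin28a and Nr6a1, regulators of the early embryo, fell. Lin28a, an RNA-binding protein that blocks maturation of the let-7 microRNAs, measured 10.49 and 10.57 at E10.5 and 12.74 and 12.50 at E10. It fell by 2.09 on the log2 scale (SE 0.21, adjusted p = 0.02609), and its second probe set differed by -1.66. Nr6a1, the orphan nuclear receptor also called germ cell nuclear factor, measured 7.23 and 7.51 at E10.5 and 9.05 and 9.11 at E10 (-1.71 ± 0.26, adjusted p = 0.03654). Its 4 other sets differed by -0.15 to -1.79. For both genes the E10.5 arrays lay well below both E10 arrays. Lin28a and Nr6a1 were the 2 called among the 15 tested members of a list of Lin28-related and oncofetal regulators, whose median was -0.08. Mycn, a Myc family factor of progenitors, measured 10.98 and 11.08 at E10.5 and 11.69 and 11.53 at E10 and did not pass (-0.58, adjusted p = 0.08953). Igf2, a growth factor of the embryo, measured 10.39 and 10.36 at E10.5 and 9.26 and 9.98 at E10 and did not pass (0.76, adjusted p = 0.2232). Prtg, protogenin, a transmembrane protein of early neural tissue, measured 10.45 and 10.64 at E10.5 and 12.55 and 12.21 at E10 (-1.84 ± 0.25, adjusted p = 0.03247). All 3 of its probe sets were lower at E10.5.

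A few genes of cell division fell. In a list of 30 genes of mitosis and the spindle, 29 were tested, 3 fell and none rose, with a median of -0.35. Their arrays did not overlap, with E10.5 lower, in 22 of 29 members, compared with 21.6% of all genes. Kif11, the kinesin that separates spindle poles, measured 7.93 and 8.05 at E10.5 and 9.13 and 9.34 at E10 (-1.25 ± 0.19, adjusted p = 0.03654). Anln, a scaffold of the cytokinetic ring, measured 9.56 and 9.74 at E10.5 and 10.57 and 10.64 at E10 (-0.96 ± 0.15, adjusted p = 0.03706). Hmmr, a spindle and hyaluronan-binding protein, measured 8.13 and 8.07 at E10.5 and 8.92 and 9.15 at E10 (-0.94 ± 0.16, adjusted p = 0.04097). In these 3 genes both stages were tight and separate. Without both E10 replicate 1 arrays, the median of the 29 tested members was -0.54. Of 30 tested genes of DNA replication none was called (4 had an unadjusted p under 0.05, all lower), with a median of -0.27. Of 13 tested inhibitors of the cell cycle none was called (5 had an unadjusted p under 0.05, all higher), with a median of 0.23. Over all genes 15.1% were higher and 7.43% lower at that level. Cdkn1c, an inhibitor of cyclin-dependent kinases, measured 9.60 and 9.65 at E10.5 and 8.45 and 9.06 at E10 (0.87, adjusted p = 0.1394).

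Ribosome biogenesis followed the same direction. All 30 listed genes were tested, 3 fell, none rose, and 27 had a difference below 0, compared with 44.4% of all genes. The median was -0.30. Ncl, nucleolin, measured 10.19 and 10.43 at E10.5 and 11.85 and 11.38 at E10 (-1.31 ± 0.23, adjusted p = 0.04859), and its 4 other probe sets differed by -0.90 to -1.58. Dkc1, which modifies ribosomal RNA, measured 11.75 and 11.70 at E10.5 and 12.90 and 12.66 at E10 (-1.06 ± 0.17, adjusted p = 0.03826). Npm1, nucleophosmin, measured 12.27 and 12.25 at E10.5 and 13.02 and 12.98 at E10 (-0.74 ± 0.14, adjusted p = 0.04938). Gnl3, nucleostemin, did not pass (-1.02, adjusted p = 0.0636).

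**Figure D3:**
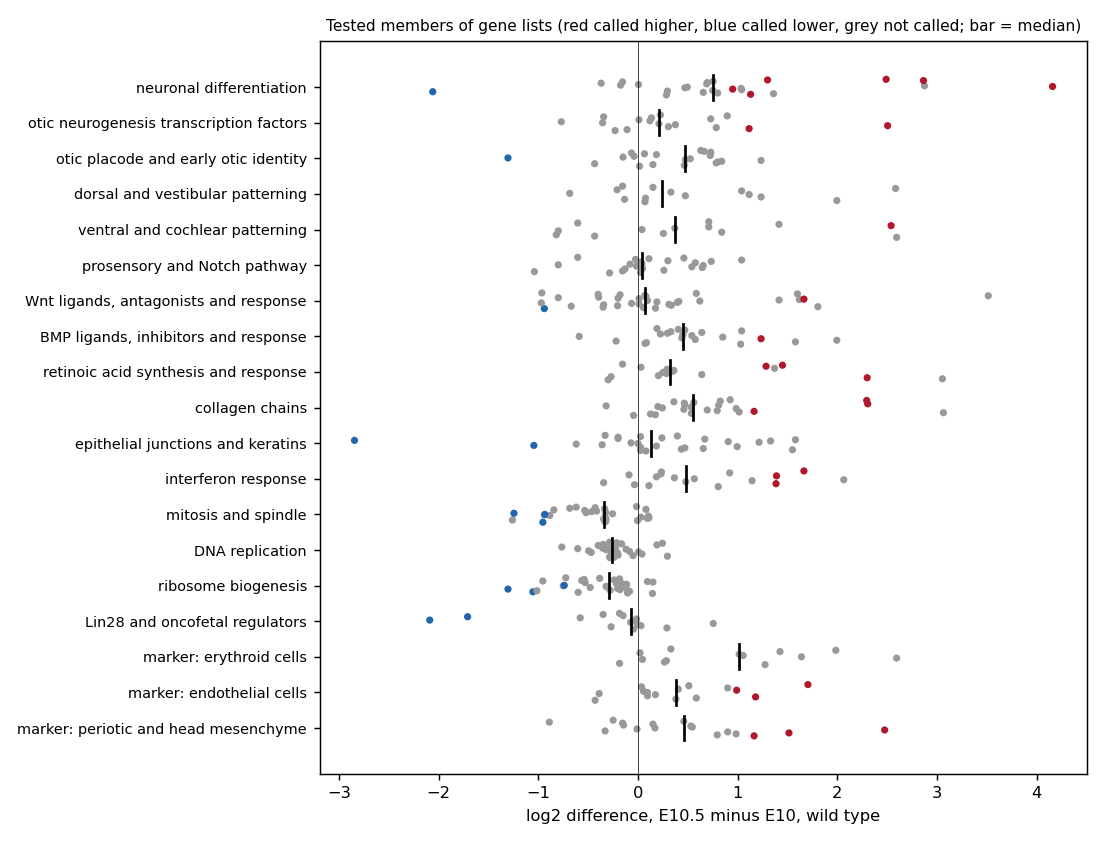
Log2 difference, E10.5 minus E10, of each tested member of 19 gene lists in wild-type vesicles. Red points were called higher, blue points called lower and grey points not called, and a black bar marks each list's median, which is 0.75 for neuronal differentiation and -0.35 for mitosis and spindle.

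Genes that give the vesicle its regional identity moved in both directions. Pax8, a paired-domain factor of the earliest otic placode, measured 7.81 and 7.63 at E10.5 and 8.93 and 9.12 at E10 (-1.31 ± 0.21, adjusted p = 0.04028). It was the 1 member called among 20 tested genes of otic placode and early otic identity, whose median was 0.47. Without wild-type E10 replicate 1 that median was 0.13. Several other members had tight E10.5 values and scattered E10 values and did not pass. Hmx2, a homeobox gene of the dorsal vesicle, measured 7.60 and 7.71 at E10.5 and 5.71 and 7.13 at E10 (1.24, adjusted p = 0.2379). Gata3, a zinc finger factor needed for otic morphogenesis, measured 7.17 and 7.29 at E10.5 and 5.70 and 7.08 at E10 (0.84, adjusted p = 0.2612). Eya1, a coactivator of the placode, measured 8.47 and 8.46 at E10.5 and 8.69 and 9.11 at E10 (-0.44, adjusted p = 0.2156).

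Otx2, a homeobox gene of the ventral vesicle, measured 6.56 and 6.57 at E10.5 and 3.64 and 4.41 at E10 and rose by 2.54 ± 0.39 (adjusted p = 0.03654), from a dim level at E10. It was the 1 called among 13 tested genes of ventral and cochlear patterning, which had a median of 0.37 (0.15 without wild-type E10 replicate 1). Emx2, a homeobox gene needed for the cochlea's sensory epithelium, measured 7.93 and 7.88 at E10.5 and 5.20 and 5.42 at E10 but did not pass (2.60, adjusted p = 0.06289). The spread in that test includes its labelled Dlx5-null E10 arrays, which measured 5.41 and 7.43. Of 14 tested genes of dorsal and vestibular patterning none was called, with a median of 0.24. An unadjusted p under 0.05 was found for 6 of them, against 22.5% of all genes. Otx1, which shapes the lateral semicircular canal, measured 9.40 and 9.47 at E10.5 and 5.62 and 8.08 at E10 (2.59, adjusted p = 0.1318). Its E10 arrays alone spanned most of that difference. Without both E10 replicate 1 arrays, Otx1 differed by 1.36 and Emx2 by 2.49. Over the 15 settings in which Otx2 passed the filter, its difference ranged between 2.155 and 2.925. Otx2 was too dim for the test without either wild-type E10.5 array, so this range leaves those fits out.

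The 4 protein-coding Dlx genes that passed the filter showed no stage call. Dlx1 measured 9.80 and 9.74 at E10.5 and 9.50 and 9.85 at E10 (0.10, adjusted p = 0.9162), and its difference was below 0 under cyclic loess and quantile normalization. Dlx3 (0.02), Dlx4 (-0.35) and Dlx5 (-0.14) had adjusted p-values of 0.9611, 0.5199 and 0.7564. Among 24 tested genes of the prosensory and Notch pathway none was called, with a median of 0.04. In limma's test 9 had an unadjusted p under 0.05, 6 higher and 3 lower, against 22.5% of all genes. Dll1, a Notch ligand of neuroblasts, measured 6.80 and 7.35 at E10.5 and 8.14 and 8.09 at E10 (-1.04, adjusted p = 0.0674). Jag1, the ligand of the prosensory domain, measured 7.80 and 7.65 at E10.5 and 8.28 and 8.77 at E10 (-0.80, adjusted p = 0.1511). Notch3, a receptor, did not pass either (1.04, adjusted p = 0.1289).

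Retinoic acid synthesis and response had 3 risers among 16 tested members, none lower, and a median of 0.32. Aldh1a3, a retinaldehyde dehydrogenase that makes retinoic acid, measured 7.70 and 8.00 at E10.5 and 4.91 and 6.19 at E10 (2.30 ± 0.43, adjusted p = 0.04938), and its 2 other probe sets differed by 1.21 and 0.44. Stra6, the retinol uptake receptor, measured 8.91 and 8.67 at E10.5 and 7.13 and 7.55 at E10 (1.45 ± 0.27, adjusted p = 0.04963). Rxrg, a retinoid X receptor, measured 7.71 and 7.94 at E10.5 and 6.49 and 6.59 at E10 (1.29 ± 0.16, adjusted p = 0.03021). In each of the 3 the E10.5 arrays lay above both E10 arrays. Aldh1a2, the main retinoic acid enzyme of embryonic mesenchyme, measured 9.24 and 9.47 at E10.5 and 4.97 and 7.63 at E10 and did not pass (3.06, adjusted p = 0.1094).

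In the Wnt list of 34 tested members, 1 rose and 1 fell, and the median was 0.07. Sfrp1, a secreted Wnt antagonist, measured 9.47 and 9.56 at E10.5 and 7.49 and 8.21 at E10 (1.67 ± 0.31, adjusted p = 0.04938). Apcdd1, a membrane-bound Wnt inhibitor, measured 8.55 and 8.84 at E10.5 and 9.64 and 9.63 at E10 (-0.94 ± 0.17, adjusted p = 0.04938). Wnt4, a ligand, measured 11.32 and 11.30 at E10.5 and 6.98 and 8.61 at E10 and did not pass (3.52, adjusted p = 0.08953). Among 21 tested BMP genes Fst, the activin and BMP antagonist follistatin, rose, with 7.05 and 6.85 at E10.5 and 5.94 and 5.49 at E10 (1.24 ± 0.22, adjusted p = 0.04909). The ligand Bmp6 (1.58) and the extracellular regulator Bmper (2.00) had adjusted p-values of 0.0772 and 0.1601. Among 11 tested Hedgehog genes Gli1, a transcription factor that is itself a target of the pathway, rose, with 7.35 and 7.38 at E10.5 and 6.19 and 6.40 at E10 (1.07 ± 0.15, adjusted p = 0.03445). The receptor Ptch1, another target, did not pass (0.48, adjusted p = 0.2151). No gene was called among 16 of FGF signalling, 17 of insulin-like growth factor signalling and 28 of axon guidance. In turn, 4, 6 and 13 of them had an unadjusted p under 0.05, against 22.5% of all genes.

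Among collagens all 24 listed chains were tested and 3 rose, with a median of 0.55. Col5a3, a chain of type V collagen, measured 8.43 and 8.25 at E10.5 and 5.85 and 6.22 at E10 (2.31 ± 0.20, adjusted p = 0.01902), but its second, dim probe set differed by -0.52. Col9a2, a chain of the type IX collagen found in the tectorial membrane and cartilage, measured 11.20 and 11.20 at E10.5 and 8.54 and 9.27 at E10 (2.30 ± 0.32, adjusted p = 0.03268). Col1a1, a chain of type I collagen, measured 7.35 and 7.17 at E10.5 and 5.93 and 6.26 at E10 (1.17 ± 0.22, adjusted p = 0.04963). Among 27 tested laminins, nidogens and integrins, Itgb3, an integrin subunit, rose by 1.63 ± 0.17 (adjusted p = 0.02609), and Lamb2, a laminin chain of basement membranes, by 0.78 ± 0.14 (adjusted p = 0.04909). Over 19 settings the difference of Itgb3 ranged between 0.7675 and 1.78. Lum, lumican, a proteoglycan of connective tissue, measured 8.76 and 8.75 at E10.5 and 5.61 and 6.95 at E10 (2.48 ± 0.41, adjusted p = 0.04097). Mesenchyme makes type I collagen and lumican, and both genes are in the mesenchyme list described below. Its mean level over 22 measured members was 6.36 and 6.23 at E10.5 and 5.78 and 6.06 at E10, and its part in the matrix differences was not tested.

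Krt23, a type I keratin on chromosome 11, showed the second largest fall after Defa31, with 8.69 and 8.83 at E10.5 and 11.74 and 11.47 at E10. It fell by 2.85 on the log2 scale (SE 0.25, adjusted p = 0.01902). Dsc2, a desmosomal cadherin, measured 7.24 and 7.23 at E10.5 and 8.22 and 8.34 at E10 (-1.05 ± 0.17, adjusted p = 0.03861). The 26 tested genes of epithelial junctions and keratins had these 2 fallers, no riser and a median of 0.13, with 17 above 0. At an unadjusted p under 0.05, 8 were higher and 3 lower. Krt7, a keratin of simple epithelia, measured 8.14 and 8.13 at E10.5 and 5.88 and 7.23 at E10 and did not pass (1.58, adjusted p = 0.144). Cldn3, a claudin of tight junctions, measured 10.04 and 9.98 at E10.5 and 7.96 and 8.96 at E10 and did not pass (1.55, adjusted p = 0.1376). Without both E10 replicate 1 arrays Cldn3 differed by 1.05. Flat members were also present. Cdh1, the epithelial cadherin, measured 8.36 and 8.35 at E10.5 and 8.28 and 8.27 at E10, and the adhesion molecule Epcam measured 8.13 and 8.07 at E10.5 and 8.12 and 8.08 at E10. Differences of 0.08 and 0 and adjusted p-values of 0.773 and 1 were found for these 2 genes. Car2, a carbonic anhydrase of ion-transporting epithelia, measured 10.37 and 10.37 at E10.5 and 11.49 and 11.57 at E10 (-1.16 ± 0.14, adjusted p = 0.02868). It was the 1 called of 14 tested genes of ion transport, otoconia and inner ear matrix, where Oc90 did not pass (1.98, adjusted p = 0.06738).

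The other named falls were of varied function. Defa31, listed as an intestinal defensin, measured 6.24 and 6.52 at E10.5 and 9.60 and 10.26 at E10 (-3.55 ± 0.57, adjusted p = 0.03826). Its probe set is of a type that can bind several related transcripts, and the defensins are a large gene family, so the identity of this signal is uncertain. Myo1h, a class I myosin, measured 6.46 and 6.20 at E10.5 and 8.43 and 8.69 at E10 (-2.23 ± 0.24, adjusted p = 0.02609). Idi1, an isomerase of isoprenoid and cholesterol synthesis, measured 9.52 and 9.65 at E10.5 and 11.45 and 11.24 at E10 (-1.76 ± 0.24, adjusted p = 0.03247), and its second probe set differed by -2.19. It was the 1 called of 18 tested genes of cholesterol synthesis, whose median was -0.14. Dmrt3, a DM-domain transcription factor on chromosome 19, averaged 6.98 at E10.5 and 8.72 at E10 (-1.75 ± 0.15, adjusted p = 0.01902). Ranbp2, a nucleoporin, fell by 1.82 (adjusted p = 0.03242). Its brightest other set differed by -0.71. Megf11 (-1.75), the cation channel gene Trpm3 (-1.63), the zinc finger gene Zfp871 (-1.61), 1810014B01Rik (-1.93) and 4932431P20Rik (-1.59) completed the 15 largest falls. Their adjusted p-values lay between 0.02868 and 0.04151. Other probe sets of 1810014B01Rik differed by 0.75, 0.36 and -0.24 and did not bear its fall out. With the mean of the probe sets per gene, the difference was -0.44 for Trpm3, -0.81 for 4932431P20Rik and -0.90 for Zfp871, and of these 3 only Zfp871 then passed. Over 19 settings 4932431P20Rik was not called in 9.

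The remaining named rises were Fabp3, a fatty acid-binding protein (2.84 ± 0.49, adjusted p = 0.0436), Chst8, a carbohydrate sulfotransferase (2.68 ± 0.37, adjusted p = 0.03247), D930028M14Rik (2.59 ± 0.23, adjusted p = 0.01902) and Spire2, an actin nucleator (2.34 ± 0.30, adjusted p = 0.03022). Fabp3 measured 9.23 and 9.22 at E10.5 and 5.92 and 6.85 at E10, and its second probe set differed by 0.09. D930028M14Rik measured 8.57 and 8.26 at E10.5 and 5.72 and 5.94 at E10, with both stages tight.

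Some markers of other cell types that the dissected pools could hold also rose. Of 15 tested endothelial markers 3 rose, with a median of 0.38 (0.205 without wild-type E10 replicate 1). Tie1, an endothelial receptor, measured 6.11 and 6.27 at E10.5 and 4.36 and 4.61 at E10 (1.71 ± 0.21, adjusted p = 0.0291). Pecam1, an endothelial adhesion molecule, measured 6.93 and 6.62 at E10.5 and 5.85 and 5.72 at E10 (0.99 ± 0.16, adjusted p = 0.04097). Eng, endoglin, was called from its brightest probe set (1.18, adjusted p = 0.04909), while a second set of nearly the same level differed by -0.19 and became the brightest under quantile normalization. The mean level of 19 measured endothelial markers was 6.19 and 6.16 at E10.5 and 5.86 and 5.85 at E10. Of 17 tested markers of periotic and head mesenchyme 3 rose (Lum, Dcn and Col1a1), with a median of 0.46 (0.145 without wild-type E10 replicate 1). Dcn, the proteoglycan decorin, measured 7.49 and 7.34 at E10.5 and 5.92 and 5.88 at E10 (1.52 ± 0.17, adjusted p = 0.02609). Over the 18 settings in which Dcn passed the filter, its difference ranged between 0.79 and 1.59. The mesenchymal factor Twist1 measured 7.66 and 7.45 at E10.5 and 6.77 and 7.42 at E10 and did not pass (0.46, adjusted p = 0.4008). Pdgfra, a growth factor receptor of mesenchyme, overlapped between stages.

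Of 13 tested erythroid markers none was called (7 had an unadjusted p under 0.05, all higher). Of these markers 12 were above 0, and their median, 1.02, was higher than that of any other cell type list. Without wild-type E10 replicate 1 that median was 0.66. Hba-x, the embryonic alpha-like globin, measured 11.06 and 11.04 at E10.5 and 7.61 and 9.30 at E10 (2.60, adjusted p = 0.07756). The mean level of 15 measured erythroid markers was 7.48 and 7.51 at E10.5 and 6.61 and 6.87 at E10. Of 7 tested hindbrain markers 1 was called lower, the paired-box gene Pax7, and none higher. Pax7 measured 5.41 and 5.31 at E10.5 and 6.85 and 6.42 at E10 (-1.28 ± 0.21, adjusted p = 0.03861). Of the 7 hindbrain markers 3 were above 0 and 4 below, with a median of -0.135. The mean level of 17 measured hindbrain markers was 5.37 and 5.26 at E10.5 and 5.27 and 5.32 at E10. None of 9 tested markers of macrophages and 7 of surface ectoderm was called. An unadjusted p under 0.05 was found for 0 and 3 of them, all 3 higher, against 15.1% of all genes higher. The mean levels of these 2 lists were 5.70 and 5.70, and 5.96 and 5.95, at E10.5, against 5.66 and 5.42, and 5.72 and 5.83, at E10. The part of these cell types in the stage differences was not tested.

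**Figure D4:**
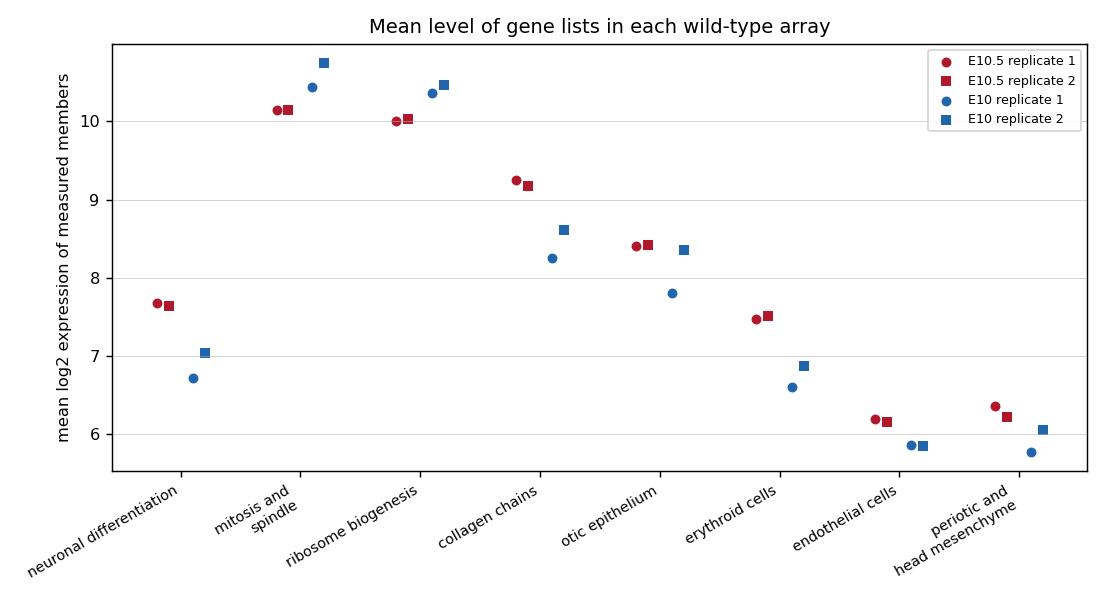
Mean log2 expression of the measured members of 8 gene lists in each wild-type array, with red for E10.5, blue for E10, circles for replicate 1 and squares for replicate 2. The E10.5 arrays lie above both E10 arrays for the neuronal (7.68 and 7.65 against 6.72 and 7.04), collagen, otic and other cell type lists and below them for mitosis and ribosome biogenesis.

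The labelled Dlx5-null vesicles, which share no arrays with the wild-type comparison but share its estimate of the spread and its normalization, had a difference of the same sign for nearly all called genes. Of the 160 genes called higher in wild type, 157 had a difference above 0 in the labelled Dlx5-null vesicles (98.1%), and of the 136 called lower, 134 had one below 0 (98.5%). Over all tested genes the sign was shared by 78.1%, and 55.1% had a difference above 0 in the labelled Dlx5-null vesicles. The median difference of the risers was 0.88 in labelled Dlx5-null and 1.30 in wild-type vesicles, and that of the fallers was -0.76 in labelled Dlx5-null and -1.06 in wild-type vesicles. These medians are of genes chosen for their wild-type difference. The E10 baselines of both genotypes share a deviation by replicate number: across genes, the deviations of the 2 E10 replicate 1 arrays from their group means had a correlation of 0.71, and Xist measured 4.98 in labelled Dlx5-null and 5.07 in wild-type E10 replicate 1, against 9.36 in labelled Dlx5-null and 9.72 in wild-type E10 replicate 2. The part of this in the shared signs was not tested. Nefl differed by 4.61 in labelled Dlx5-null and 4.16 in wild-type vesicles, Stmn2 by 3.59 and 2.87, Lin28a by -1.38 and -2.09, and Krt23 by -1.64 and -2.85. On its own the stage contrast of the labelled Dlx5-null arrays called 3 genes (0.022%), with 2085 (15.3%) at an unadjusted p under 0.05. They were Akap6 (2.38, adjusted p = 0.03171), a scaffold for protein kinase A, Hemgn, an erythroid nuclear protein (3.27, adjusted p = 0.04413), and Ctse, cathepsin E, an aspartic protease (2.46, adjusted p = 0.04413). Of these, Akap6 was also called in wild type (1.08, adjusted p = 0.04067).

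The difference between the stage changes, labelled Dlx5-null minus wild type, passed for 0 genes in limma's test, with 269 (1.97%) at an unadjusted p under 0.05. Of these, 75 (0.55%) were higher and 194 (1.42%) lower in labelled Dlx5-null. The 5 genes with the smallest unadjusted p in each direction are therefore given as values. Eci3, an enoyl-CoA isomerase of fatty acid breakdown, measured 6.63 and 6.75 in labelled Dlx5-null vesicles at E10.5 and 6.35 and 6.23 at E10, and 8.33 and 8.35 in wild-type vesicles at E10.5 and 6.42 and 6.09 at E10. Its stage change differed by -1.69, and its wild-type E10.5 arrays lay above all the others. Plekha4, a phosphoinositide-binding protein, measured 10.97 and 10.93 in labelled Dlx5-null vesicles at E10.5 and 10.70 and 10.91 at E10, and 11.14 and 11.21 in wild-type vesicles at E10.5 and 8.92 and 9.42 at E10 (-1.86). Flot2 (-3.15), Col5a3 (-1.50) and the interferon-induced Ifi35 (-1.31) were the others lower in labelled Dlx5-null. The value of Ifi35 turned to 0.04 without wild-type E10 replicate 1 or without labelled Dlx5-null E10 replicate 2. In those fits another Ifi35 probe set became the brightest. Higher in labelled Dlx5-null were Car2 (1.17), Akap6 (1.30), Togaram1 (1.12) and the erythroid genes Hemgn (2.25) and Klf1 (1.32). Car2 measured 10.80 and 10.71 in labelled Dlx5-null vesicles at E10.5 and 10.73 and 10.77 at E10, all between the wild-type arrays of the 2 stages. The mean level of the erythroid markers was 8.29 and 8.25 in labelled Dlx5-null vesicles at E10.5, above the 7.48 and 7.51 of wild type, and its part in the values of Hemgn and Klf1 was not tested. All 10 had an adjusted p of 1.

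**Figure D5:**
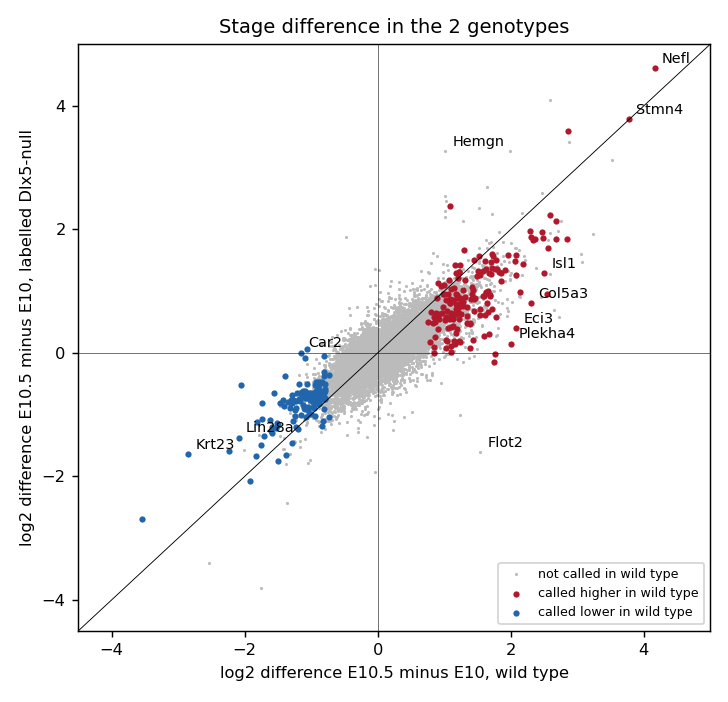
Log2 difference, E10.5 minus E10, of 13645 genes in wild-type vesicles (x axis) and in labelled Dlx5-null vesicles (y axis), with the 160 genes called higher in wild type in red, the 136 called lower in blue and the rest in grey, and a diagonal line where both differences are equal. Of the called genes, 157 and 134 lie on the same side of 0 in both genotypes.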

How the data were processed

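Expression was measured on Affymetrix mouse arrays of 45101 probe sets, 1 pool of vesicles per array. The deposited values are log2 expression per probe set from RMA as run in Affymetrix Expression Console, per the submitters' processing notes, and the background correction and normalization in RMA act on all arrays together. Versions of that software: not given in the sources used here.

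Probe sets were named through the platform annotation and RefSeq: 34958 had 1 gene, 932 several and 9211 none, and the last 2 kinds were kept out of the gene tests. The brightest set stood for each of 18194 genes, and the lowest 25% by mean level were left out, which kept 13645. Limma 3.58.1 in R 4.3.3 was fitted to the 8 vesicle arrays as 4 group means, without a block, and p-values were adjusted by Benjamini-Hochberg over all genes tested at a threshold of 0.05. The labels call the pools biological replicates. On simulated data of 13645 genes, a log2 change of 2 was called in 89% and a change of 1 in 37% of 100 changed genes each. Among the unchanged genes 4 were called. The simulated spread was equal in all groups and independent between arrays, unlike that of the real E10 arrays, so these rates may not hold for them. Deviations from the group means of same-numbered wild-type E10.5 and E10 arrays had a correlation of -0.0959 across genes. With 2 arrays per group, this cannot show whether replicate numbers pair the wild-type samples. Same-numbered E10 arrays of the wild-type and labelled Dlx5-null groups did share deviations (correlation 0.7071). The fit without a block treats these as independent, and a fit with the block called 115 genes.

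The members and gene lists were chosen with earlier results of these data known. Named genes were the 15 largest called changes in each direction among genes whose stages did not overlap. The 5 smallest unadjusted p-values in each direction of the genotype difference were named too. Other list members and Eif2s3y were named after their values were seen. Alternatives were other normalizations, filters, probe set rules, variance settings, array weights, a replicate block and leaving out arrays. The 4 cell line arrays were not used.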

Additional observations from a re-analysis of the deposited data

Results flagged for a closer look

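Probe sets with no gene or with several genes took no part in the gene comparison. Of 7605 such sets that passed the same filter, 34 were called between E10.5 and E10 in wild-type vesicles, 8 higher and 26 lower, with 676 at an unadjusted p under 0.05, and they are given here because they carry a stage difference outside the main measurement.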

How the results depend on the processing

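The count of called genes depended on the setting. Against 296 calls (160 higher, 136 lower), the 4 wild-type arrays alone gave 0, 0 and 0. Centring each array on its median gave 197 (105 higher), cyclic loess 1164 (638 and 526), quantile normalization 1013 (529 and 484), and a trended, robust variance 628 (334 and 294). Array weights gave 416 with 293 higher, so that 70.4% of calls were higher, against 54.1%. Leaving out 1 array at a time gave between 0 and 873 calls, 0 to 687 higher and 0 to 262 lower. The share higher was 78.7% without wild-type E10 replicate 2, and 68.9% and 68.8% without labelled Dlx5-null E10 replicate 1 and 2. Without both E10 replicate 1 arrays, an alternative chosen after seeing the data, 1689 passed (1015 and 674). Averaging probe sets (260), no filter (206) and leaving out the lowest 50% (378) stayed within 1.5 times. A fit that leaves 1 array in a group takes no spread from that group. The causes were not tested.

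The labelled Dlx5-null stage change, with 3 calls, gave 103 with the trended, robust variance, 0 to 30 when 1 array was left out and 288 without both E10 replicate 1 arrays. The genotype difference had 3 calls without both E10 replicate 1 arrays, Akr1b8 (-2.65), Spata5l1 (3.57) and Tmem267 (2.96), and 0 in every other fit of both genotypes.

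With the replicate block 115 genes were called (75 higher, 40 lower), 112 of them among the 296, and 0 in the labelled Dlx5-null vesicles, where replicate numbers carry no known pairing.

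Signs turned for few genes. Klf1 differed by -0.01 in wild type without wild-type E10 replicate 1 and by up to 0.05 without another array. Dlx1 differed by -0.0472 under cyclic loess, -0.0394 under quantile normalization, and between -0.08 (without wild-type E10 replicate 1) and 0.27 when 1 array was left out. Dlx3 differed by -0.01 without wild-type E10.5 replicate 2. For Eng another probe set became the brightest, at -0.37 under quantile normalization and between -0.21 and 1.43 when 1 array was left out. The Ifi35 genotype difference lay between -1.45 and 0.04, the last without wild-type E10 replicate 1 or labelled Dlx5-null E10 replicate 2. In those fits, too, another probe set became the brightest.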

Other observations

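Some genes of the interferon response rose at E10.5 in wild-type vesicles. Of 17 tested members 3 rose and none fell, with a median of 0.48. Usp18, which removes the ubiquitin-like protein Isg15, measured 6.43 and 6.18 at E10.5 and 4.71 and 4.57 at E10 (1.67, adjusted p = 0.02762). Oas1a, an oligoadenylate synthetase, measured 9.27 and 9.18 at E10.5 and 7.73 and 7.94 at E10 (1.39, adjusted p = 0.03445). Ifi35, another interferon-induced gene, measured 7.01 and 7.03 at E10.5 and 5.50 and 5.77 at E10 (1.39, adjusted p = 0.02609). Over the 18 settings in which Ifi35 passed the filter, its difference ranged between 0.48 and 1.705. In some of these settings another probe set was the brightest. In the probe sets used here, the stages of all 3 genes were separate. In labelled Dlx5-null vesicles Usp18 differed by 0.31 and Oas1a by 0.46, and the list's median was 0.12. No difference between the genotypes passed the test.

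Of 16 tested heat shock and chaperone genes 15 had a difference below 0 and 1 fell, Hsph1, a large heat shock protein, with 10.73 and 10.85 at E10.5 and 11.87 and 11.61 at E10 (-0.95, adjusted p = 0.04909). Among 18 immediate early genes Ier3 rose (1.24, adjusted p = 0.03085). Of 29 tested genes of oxidative phosphorylation 23 were above 0, against 55.4% of all genes. Limma's test gave 0 calls among them (1 at an unadjusted p under 0.05). Their median was 0.21, and it was 0 without wild-type E10 replicate 1. Hypoxia and glycolysis genes had a median of 0.06 over 28 tested members and 0 calls. At an unadjusted p under 0.05 there were 5, against 22.5% of all genes.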
